A study of Mus musculus with 26 samples.

Results

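Wild-type MC38 cells were given GSK3326595, which inhibits the arginine methyltransferase PRMT5, at 0.5 µM for 5 days, and the RNA of these cells was compared with that of the same cells in DMSO. The members are the 3 libraries titled with GSK3326595 and the 3 titled with DMSO in the wild-type line, 6 of the 26 libraries of the series, taken across every gene that could be tested. MC38 is a mouse colon carcinoma line, and the titles of all groups used here name the melanoma antigen gp100. Besides the wild-type line, the MC38 experiment held a line in which Mtap was knocked out, and it used a second PRMT5 inhibitor, MRTX1719, which acts together with methylthioadenosine, the metabolite that builds up when MTAP is lost. Groups used for comparison were Mtap KO cells in DMSO (3 libraries), Mtap KO cells with 0.5 µM GSK3326595 for 5 days (3 libraries) and wild-type cells with 0.5 µM MRTX1719 for 5 days (2 libraries). The titles name GSK3326595 in all 3 replicates, but the treatment field reads GSK3326596 and GSK3326597 for 2 of them, and the titles were followed. The labels do not say whether a line is 1 clone, or whether replicates are separate cultures. The p-values therefore measure only how far the MC38 libraries spread, and that spread may be technical.

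PRMT5 works in a complex with WDR77 and places symmetric dimethylation on arginines of histones, of the Sm proteins that build the spliceosome and of many other proteins. Interferons act through receptor-bound JAK kinases and STAT and IRF factors on short promoter elements, and the genes they switch on include antiviral effectors, interferon-inducible GTPases and the machinery that shows peptides on MHC class I to CD8 T cells. MHC class I consists of a heavy chain (H2-D1, H2-K1 and related genes in mouse), beta-2-microglobulin and a peptide that the immunoproteasome cuts and the TAP transporter carries into the endoplasmic reticulum.

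The 6 libraries held between 22755637 and 26998358 counts, and 14835 genes were tested. Their markers went against an epithelial identity: of 9 colon epithelium markers, 8 were under 1 CPM (counts scaled to a common library size) in all 6 libraries, and Epcam had no count. The exception, Krt8, a keratin of simple epithelia, averaged 23.1 CPM in DMSO and 38.2 CPM with GSK3326595. Markers of fibroblasts summed to between 2170 and 2260 CPM, but 5 of the 10 averaged under 1 CPM. Much of that sum is Col3a1, with a mean of 1436 CPM in DMSO, and Dcn, with 470 CPM. Leukocyte markers summed to between 16.5 and 18.3 CPM in DMSO and between 17.4 and 18.2 CPM with GSK3326595, with 17 of 19 under 1 CPM. Mtap, which the wild-type line should carry, stood at 388, 393 and 397 CPM in DMSO and at 417, 421 and 418 CPM with the inhibitor. In the KO line in DMSO it was at 264, 274 and 276 CPM, so the whole-gene count is lower there but not absent, and it checks the KO label only in part. Pmel, the mouse gene of gp100, averaged 1.69 CPM in wild-type DMSO and 1.68 CPM with GSK3326595, which does not check the gp100 label.

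With GSK3326595, 2977 genes were higher and 3125 lower in wild-type cells (edgeR quasi-likelihood test, Benjamini-Hochberg adjusted p under 0.05), which is 20.1% and 21.1% of the genes tested and 41.1% together. Under upper-quartile scaling the split moved to 3577 higher and 2502 lower. Most of these changes were small: the median change of a called gene was 1.15-fold, and 84.7% of them moved by less than 0.5 on the log2 scale. A change of at least 2-fold was found for 344 genes (2.32%), 250 higher and 94 lower, and 256 of the 344 had a mean under 1 CPM. That count was 180 when genes had to reach 1 CPM in 3 libraries and 222 with DESeq2. The filter on low counts keeps a gene that is high enough in as few libraries as the smallest group holds. A low gene can thus enter through the group where it is high, and the split of 250 and 94 may rest in part on that. Among genes with at least 10 CPM in the higher group, only 9 rose and 4 fell by 2-fold or more.

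**Figure D1:**
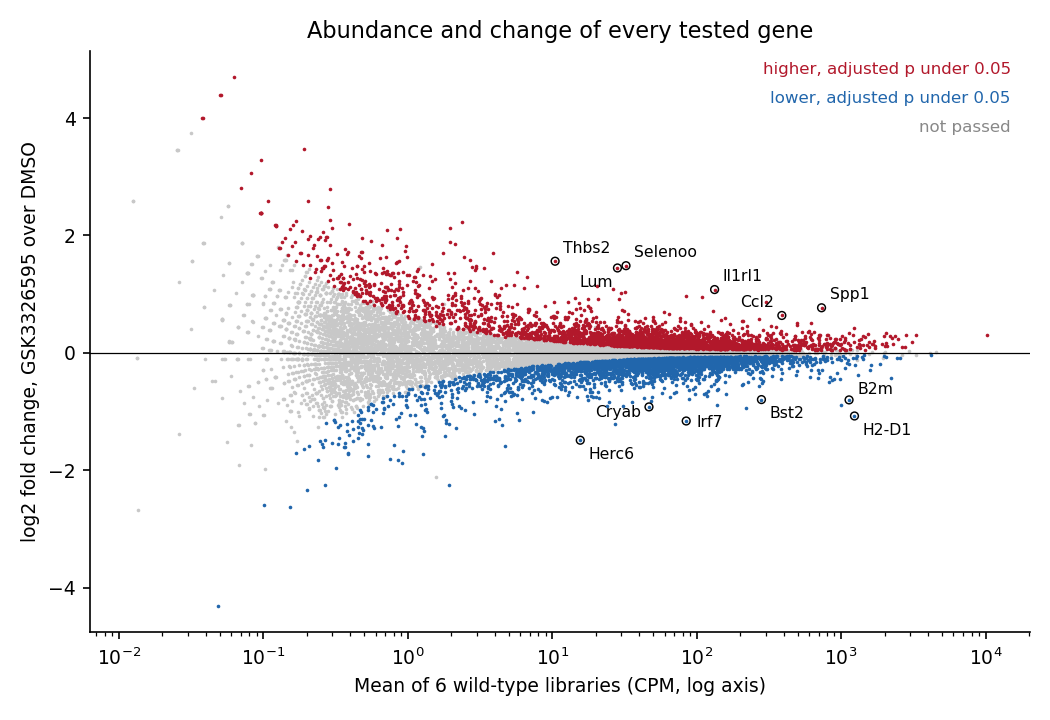
Log2 fold change of every tested gene with GSK3326595 in wild-type MC38 cells against its mean level (CPM, log axis), with called genes coloured by direction. Most called genes lie within 0.5 of zero, and the points past 2-fold are concentrated at levels under 1 CPM.

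The target itself changed little at the RNA level. Prmt5 stood at 143, 149 and 144 CPM in DMSO and at 153, 159.7 and 155 CPM with the inhibitor, a log2 rise of 0.10 ± 0.027 (SE; adjusted p = 0.0015). The groups did not overlap, but the rise is small. Of the 5 genes of the PRMT5 complex, 3 rose, 1 fell and 1 did not pass. Riok1, an adaptor that brings substrates to PRMT5, rose by 0.12 on the log2 scale (adjusted p = 0.00553). For Wdr77, the obligate partner, the rise was 0.12, and its adjusted p of 0.0498 rose to between 0.056 and 0.308 in the alternatives that lost it. Clns1a, the adaptor for Sm proteins, fell by 0.09 (adjusted p = 0.0157, and 0.121 under upper-quartile scaling), and Coprs, the histone adaptor, had a log2 difference of -0.01 (adjusted p = 0.916).

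Among the 8 other arginine methyltransferases tested, 4 rose and 1 fell. Prmt6, which places asymmetric dimethylation, went from 19.2, 19.6 and 19.5 CPM to 23.2, 23.2 and 25.2 CPM (log2 0.29 ± 0.058, adjusted p = 8.85e-06). The main asymmetric enzyme, Prmt1, rose by only 0.08. Genes of the Sm proteins and of snRNP assembly, with 4 of 21 higher, 4 lower and 13 not passed, were near the 20.1% and 21.1% of all genes. Splicing regulators of the SR and hnRNP families and their kinases had 16 of 37 higher and 12 lower. Among all genes tested the share called rose with level, from 11.9% under 1 CPM to 51.5% between 20 and 100 CPM. List counts here and below are not matched for level, and are to be read against the 20.1% higher and 21.1% lower of all genes. In the methionine cycle and its salvage from methylthioadenosine, 8 of 18 genes rose and 1 fell, with a list median of 0.10 against 0.00 for all genes tested. Cth, which makes cysteine from cystathionine, rose from 62.7, 61.1 and 64.0 CPM to 90.6, 90.6 and 90.7 CPM (log2 0.54 ± 0.035, adjusted p = 7.92e-30), and Enoph1, of the salvage route, rose by 0.47.

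MHC class I genes were among the abundant genes that fell most. H2-D1 (ENSMUSG00000073411) was at 1725, 1658 and 1657 CPM in DMSO and at 795, 791 and 803 CPM with GSK3326595, a log2 change of -1.08 ± 0.019 (adjusted p = 6.86e-84). No gene tested had a smaller adjusted p. B2m, the light chain shared by all class I molecules, was at 1451, 1453 and 1427 CPM and then at 829, 827 and 827 CPM (log2 -0.80 ± 0.019, adjusted p = 5.32e-77). In both genes the 3 treated libraries lay close together and far under all 3 DMSO libraries. The other classical heavy chain, H2-K1, went from 1327, 1272 and 1292 CPM to 709, 695 and 705 CPM (log2 -0.88 ± 0.032, adjusted p = 1.31e-13). The non-classical chain H2-Q4 went from 292, 284 and 293 CPM to 148, 152 and 151 CPM (log2 -0.94 ± 0.025, adjusted p = 1.45e-71). Of the 12 class I chains tested, 8 fell, 4 did not pass and none rose, where 21.1% of all genes fell. The 4 that did not pass had log2 differences of -1.09 (H2-Q10), -0.40 (H2-Q7), -0.01 (H2-M3) and 0.41 (H2-Q6). Heavy-chain genes are close copies of each other, and how the counting shared reads between them is not stated in the sources, so the values of single H2 genes are uncertain to that extent. B2m has no such copy.

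The genes that cut and load the peptide were lower too. Psmb9, an immunoproteasome subunit, fell from 40.5, 39.9 and 40.1 CPM to 20.1, 21.8 and 22.03 CPM (log2 -0.91 ± 0.052, adjusted p = 2.07e-34). Tap1, a chain of the peptide transporter, fell from 146, 147 and 147 CPM to 93.8, 90.7 and 94.1 CPM (log2 -0.66 ± 0.029, adjusted p = 6.63e-45). Tapbp, which holds empty class I molecules at the transporter, fell from 321, 313 and 318 CPM to 234, 236 and 238 CPM (log2 -0.43 ± 0.023, adjusted p = 1.29e-37). Levels in treated and DMSO libraries did not overlap for any of these genes. In the whole list of processing, loading and the class I activator Nlrc5, 11 of 16 fell, 2 rose (Psme1 by 0.14 and Canx by 0.23) and 3 did not pass. Nlrc5 itself fell by 0.14. The constitutive 20S proteasome, which serves all cells and not only antigen presentation, had 6 of 14 genes higher and 1 lower, with a median of 0.03.

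**Figure D2:**
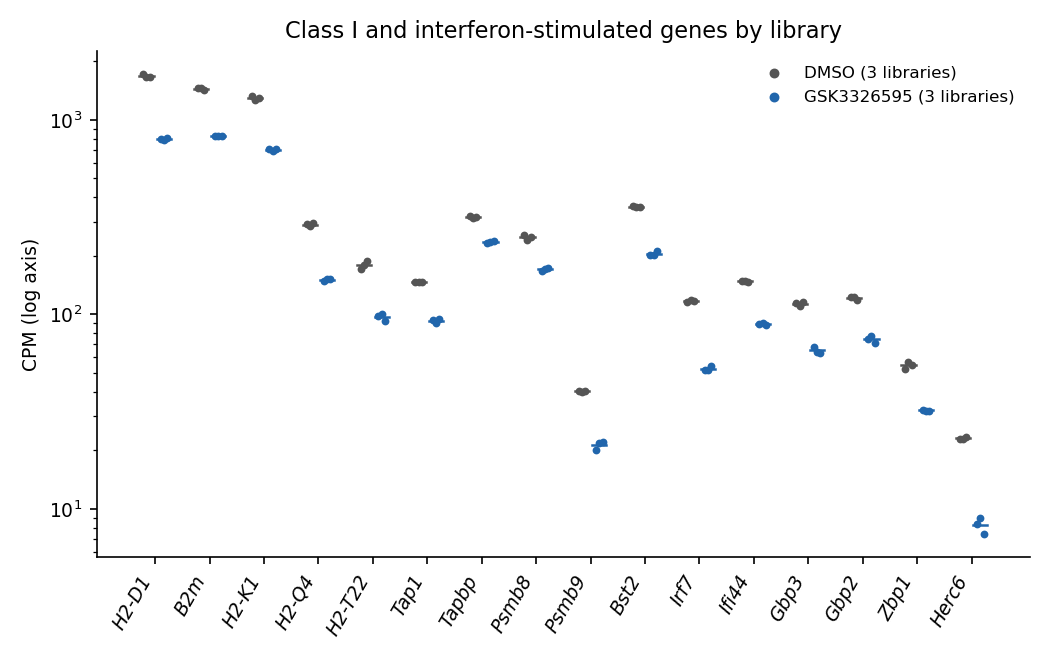
Level (CPM, log axis) of 16 class I and interferon-stimulated genes in wild-type cells; each point is a library, grey in DMSO and blue with GSK3326595 (3 each), and the short lines are means. The 3 GSK3326595 points of H2-D1, between 791 and 803 CPM, lie under all 3 DMSO points, and no gene shown has overlapping groups.

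The antiviral genes that interferon switches on fell with them. Of 69 effectors tested, 57 fell, 4 rose and 8 did not pass, with a list median of -0.39 against 0.00 for all genes. Irf7, the factor that amplifies the interferon response, went from 116, 118 and 117 CPM to 51.4, 51.4 and 54.1 CPM (log2 -1.16 ± 0.033, adjusted p = 8.46e-67). Herc6, the ligase that attaches ISG15 in mouse, went from 22.97, 22.8 and 23.5 CPM to 8.35, 8.93 and 7.38 CPM (log2 -1.49 ± 0.075, adjusted p = 7.52e-40). Bst2, or tetherin, which holds budding virus at the cell surface, went from 359, 355 and 356 CPM to 203, 202 and 211 CPM (log2 -0.80 ± 0.024, adjusted p = 4.93e-65). Each of these genes was lower in every treated library than in any DMSO library. Ifi44 fell by 0.73 and Zbp1, a sensor of nucleic acid in the Z conformation, by 0.77. The 4 effectors that rose were Slfn5 (0.87), Ifitm1 (0.58), Uba7 (0.35) and Pnpt1 (0.11). In the GRCm38 annotation several named genes overlap a gene on the opposite strand: Irf7 (Phrf1), Psmb9 (Tap1), B2m (Patl2), H2-Q4 (Gm11131), Selenoo (Tubgcp6), Cryab (Hspb2) and Ccl2 (Gm17268). Herc6 (Gm45193), Spp1 (Gm42793) and Trim30d (Gm16464) overlap a gene on their own strand, and the sources do not state whether the counting used strand.

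The interferon-inducible GTPases, which attack the vacuoles of intracellular pathogens, had 13 of 16 members lower and none higher, with a median of -0.49. Gbp3 went from 114, 111 and 115 CPM to 67.9, 64.1 and 63.5 CPM (log2 -0.80, adjusted p = 1.06e-48), and Gbp2 from 122, 123 and 119 CPM to 74.8, 77.2 and 71.3 CPM (log2 -0.70 ± 0.031). Cytosolic sensors of nucleic acid had 12 of 20 lower and 3 higher. Ifi204, a DNA sensor, fell by 0.59, and Ifih1 and Dhx58, RNA sensors, by 0.35 each, while Rnaseh2b, a subunit of RNase H, rose by 0.45.

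Upstream of these effectors the picture was mixed. Of 21 receptors, JAK kinases, STAT and IRF factors, 9 fell, 4 rose and 8 did not pass, where 21.1% of all genes fell and 20.1% rose. Stat2, a signal transducer of type I interferon, fell by 0.35, and its DNA-binding partner Irf9 by 0.33. Ifngr1, a chain of the interferon gamma receptor, rose by 0.39, and the feedback inhibitor Socs3 by 0.31. Irf1 had a log2 difference of -0.07 and did not pass. The interferon genes themselves gave almost no counts: the 10 genes listed had 11 counts over the 3 DMSO libraries and 6 over the 3 treated libraries, 6 of the 10 had none in any, and none could be tested.

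Promoters of 4 of these genes are shown, 3 with an element that interferon factors read and 1, that of Irf7, without. The stretches run from 250 bases before to 50 bases after the start of the gene in RefSeq, build GRCm38.p6, and each is written 5′ to 3′ on the strand of the gene. Capitals mark every match, on either strand, to the IRF core AANNGAAA or to the interferon-stimulated response element GAAANNGAAA, which contains the core.

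B2m (chr2:122147437-122147736, plus strand): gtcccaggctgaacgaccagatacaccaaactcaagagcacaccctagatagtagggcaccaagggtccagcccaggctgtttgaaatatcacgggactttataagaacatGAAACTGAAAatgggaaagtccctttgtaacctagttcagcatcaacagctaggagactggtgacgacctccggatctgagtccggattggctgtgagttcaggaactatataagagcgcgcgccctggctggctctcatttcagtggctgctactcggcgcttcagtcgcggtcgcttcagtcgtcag

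Bst2 (chr8:71537423-71537722, minus strand): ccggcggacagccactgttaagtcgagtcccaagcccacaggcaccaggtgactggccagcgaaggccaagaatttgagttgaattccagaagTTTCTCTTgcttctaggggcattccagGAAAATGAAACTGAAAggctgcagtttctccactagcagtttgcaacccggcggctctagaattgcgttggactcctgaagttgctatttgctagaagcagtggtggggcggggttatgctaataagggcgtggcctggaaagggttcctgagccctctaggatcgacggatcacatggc

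H2-D1 (chr17:35262844-35263143, plus strand): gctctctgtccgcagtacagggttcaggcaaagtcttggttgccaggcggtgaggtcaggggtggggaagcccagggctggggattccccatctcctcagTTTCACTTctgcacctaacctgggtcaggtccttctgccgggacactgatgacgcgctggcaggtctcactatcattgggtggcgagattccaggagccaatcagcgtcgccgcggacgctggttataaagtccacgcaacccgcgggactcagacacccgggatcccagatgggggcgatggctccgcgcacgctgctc

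Irf7 (chr7:141266375-141266674, minus strand): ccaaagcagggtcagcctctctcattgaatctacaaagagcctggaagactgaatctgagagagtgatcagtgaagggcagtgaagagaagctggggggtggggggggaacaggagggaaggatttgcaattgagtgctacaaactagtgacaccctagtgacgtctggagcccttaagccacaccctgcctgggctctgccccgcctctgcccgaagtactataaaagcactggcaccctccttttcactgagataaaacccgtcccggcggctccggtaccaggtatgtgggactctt

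B2m holds the full response element 139 to 130 bases before its start, and Bst2 holds overlapping copies of it, 130 to 121 and 124 to 115 bases before. H2-D1 holds only the core, 150 to 143 bases before its start, read on the other strand, and Irf7 has no match in this window. All 4 genes fell. They were picked among the interferon and class I genes with the smallest p. H2-Q4, with the core only, and H2-T22, with the full element, ranked there too and are not shown. The full element is in 3.44% of the 32851 promoters of that table, in 25 of the 54 antiviral effectors with an entry, in 9 of 10 GTPases and in 3 of 10 class I chains. The gamma-activated site TTCNNNGAA is in 8.30% of all promoters and in 9 of the 54 effectors, 6 of 10 GTPases, 1 of 10 class I chains and 6 of 19 receptor, JAK, STAT and IRF genes. Among tested genes with the response element, 134 of 390 fell (34.4%), against 23.3% of the 9889 without it. For the core alone the shares were close, 24.3% with it and 23.6% without, and 22.3% and 23.4% outside the interferon and class I lists; the core is in 23.9% of all promoters, in 45 of the 54 effectors and in all 10 GTPases and 10 class I chains with an entry. Outside those lists, 94 of 344 with the full response element fell (27.3%), against 2259 of 9815 without it. The counts for lists are of genes with a match in any of their promoters, while the shares of all promoters count each promoter singly. These shares are descriptions without a test, and a match of letters is not a measured binding site.

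Other surface and death genes tied to immune recognition changed in both directions. Of 13 checkpoint ligands, 6 fell and 3 rose: Cd274, which encodes PD-L1, fell by 0.37, Cd276 by 0.29 and Nectin3 by 0.27. Ulbp1, a ligand of the NK receptor NKG2D, went from 59.3, 61.5 and 63.0 CPM to 35.1, 35.8 and 37.8 CPM (log2 -0.76, without overlap). Its list of NKG2D ligands and death receptors had 3 of 9 lower, 2 higher and 4 not passed. Of all genes tested, 21.1% were lower and 20.1% higher. Mlkl, the executor of necroptosis, went from 142, 138 and 136 CPM to 85.0, 85.5 and 86.4 CPM (log2 -0.69). Of 10 genes of pyroptosis and necroptosis, 5 fell and 3 rose, among them the inflammatory caspase Casp1 (0.32) and Ripk3, the kinase that activates MLKL (2.11), which was at 0.0422, 0.0379 and 0.0869 CPM in DMSO and at 0.385, 0.115 and 0.258 CPM with the inhibitor. MHC class II gave little to test: Ciita, its master activator, had no count in any of the 6 libraries, and of 3 class II genes tested 1 fell.

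**Figure D3:**
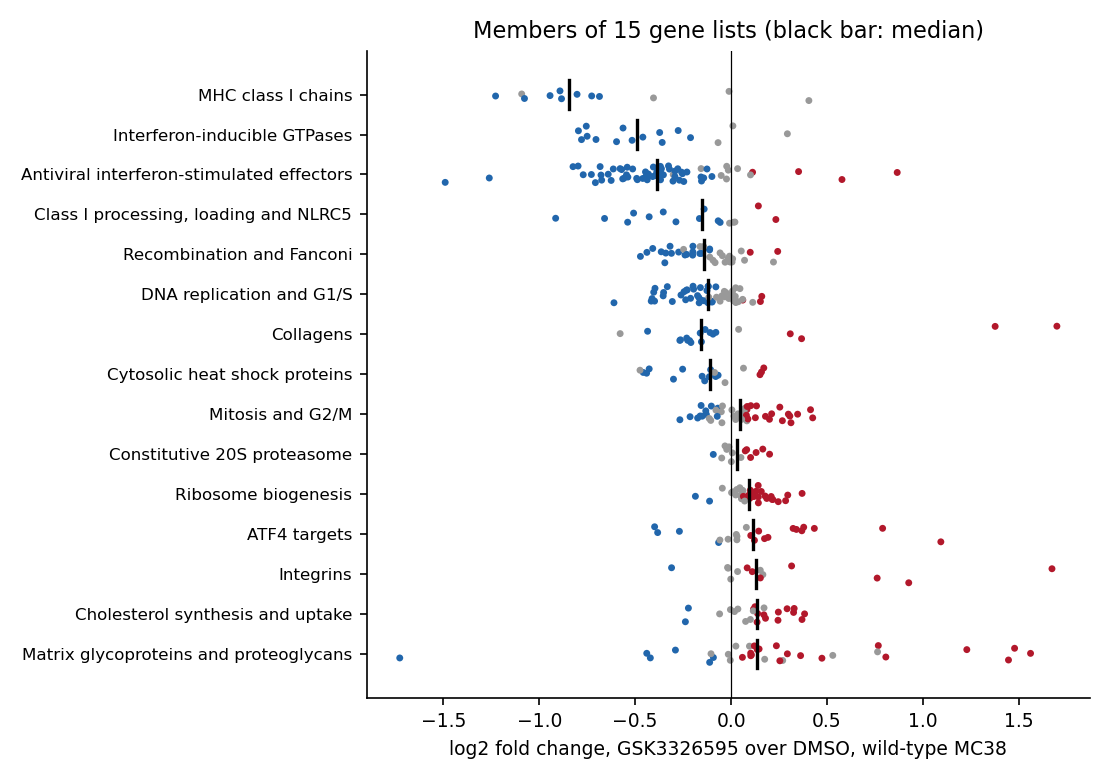
Log2 fold change with GSK3326595 over DMSO in wild-type MC38 cells (x axis) of each tested member of 15 gene lists; each point is a gene, red where it rose, blue where it fell and grey where it did not pass, and the black bar is the list's median. Antiviral effectors had 57 of 69 lower and ribosome biogenesis 21 of 36 higher, where 21.1% and 20.1% of all genes were.

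Genes of DNA replication and of entry into S phase also leaned downward, by less. Of 55 tested, 32 fell, 3 rose and 20 did not pass (median -0.12). E2f2, an activating E2F factor, went from 22.7, 22.5 and 21.6 CPM to 14.3, 15.1 and 14.4 CPM (log2 -0.61 ± 0.063, adjusted p = 1.28e-15). E2f8 fell by 0.42 and Clspn, a partner of the replication checkpoint, by 0.40. Of 39 genes of homologous recombination and the Fanconi pathway, 18 fell and 2 rose. Brca1 went from 80.7, 81.1 and 78.9 CPM to 61.8, 59.4 and 56.5 CPM (log2 -0.44, adjusted p = 1.06e-22), and Exo1, a nuclease that resects broken ends, from 52.7, 48.8 and 48.0 CPM to 34.6, 37.5 and 35.5 CPM (log2 -0.47, adjusted p = 2.97e-18). Both were lower in all 3 treated libraries than in any DMSO library.

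Mitotic genes did not follow replication. Of 46 tested, 18 rose and 11 fell (median 0.05). Cenpa, the histone of the centromere, went from 62.6, 59.3 and 60.2 CPM to 79.6, 80.6 and 82.3 CPM (log2 0.41 ± 0.035, adjusted p = 2.81e-21). Bora, which activates Aurora A, rose by 0.43, Ccnb2, a B cyclin, by 0.35 and Aurka by 0.31. Among 13 cell cycle inhibitors and D cyclins, 7 fell and 2 rose, and Cdkn1a, the p21 inhibitor, went from 54.1, 52.3 and 51.0 CPM to 40.3, 40.0 and 41.9 CPM (log2 -0.36, adjusted p = 5.44e-13). The p53 targets as a list were 7 higher, 5 lower and 20 not passed of 32, where 20.1% of all genes rose and 21.1% fell. Mdm4, a p53 inhibitor whose splicing depends on PRMT5, went from 107, 105 and 107 CPM to 97.2, 93.9 and 95.2 CPM, a fall of 0.15 (adjusted p = 3.05e-05); gene counts do not separate its isoforms.

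Several biosynthetic lists had more genes higher than lower, by small amounts. Of 36 ribosome biogenesis genes, 21 rose and 2 fell (median 0.10). Npm1, the nucleolar chaperone nucleophosmin, went from 2543, 2537 and 2539.5 CPM to 3141, 3129 and 3081 CPM (log2 0.30), and Nop10, of the pseudouridine-forming complex, rose by 0.37. Cholesterol synthesis and uptake had 13 of 23 higher and 2 lower, led by Msmo1 (0.38) and Fdps (0.37), which went from 40.2, 38.5 and 41.6 CPM to 50.8, 51.1 and 53.2 CPM. Aminoacyl-tRNA synthetases had 12 of 20 higher, and targets of the stress factor ATF4 had 12 of 22 higher and 4 lower. Fatty acid synthesis had 5 of 15 higher, 1 lower and 9 not passed (median 0.01), and polyamine genes had 4 of 12 higher and 3 lower. The shares over all genes tested were 20.1% higher and 21.1% lower. Cytosolic heat shock proteins went the other way, with 11 of 18 lower and 3 higher. Hspa8, the constitutive HSC70 chaperone, went from 2518, 2552 and 2543 CPM to 1893, 1904 and 1866 CPM (log2 -0.43 ± 0.017, adjusted p = 2.53e-50), without overlap. Immediate early genes had 14 of 28 lower and 6 higher: Egr3 fell by 0.84, Klf2 by 0.55 and Egr1 by 0.44, while Dusp1, a MAP kinase phosphatase, rose by 0.56.

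Genes of the extracellular matrix changed in both directions. Thbs2, the matricellular protein thrombospondin-2, had the largest rise among genes at 10 CPM or more: 5.15, 5.34 and 5.43 CPM in DMSO and 16.1, 14.01 and 16.8 CPM with the inhibitor (log2 1.56 ± 0.088, adjusted p = 5.86e-35). Lum, the proteoglycan lumican, which spaces collagen fibrils, went from 15.4, 14.9 and 15.4 CPM to 41.1, 42.4 and 40.7 CPM (log2 1.45 ± 0.056, adjusted p = 3.98e-51). Adamts10, a secreted protease of microfibrils, went from 20.6, 20.9 and 21.03 CPM to 41.5, 43.7 and 43.4 CPM (log2 1.04 ± 0.048). In all 3 genes every treated library lay above every DMSO library. Matrix glycoproteins and proteoglycans had 18 of 33 higher and 6 lower, matrix proteases and crosslinkers 11 of 22 higher and 6 lower, and integrins 7 of 14 higher and 1 lower (3 higher without GSK3326595 replicate 3, and 4 with DESeq2). The 19 collagens leaned down, with 13 lower and 4 higher, although Col12a1 rose by 1.38 and Col14a1 by 1.70. Timp2, an inhibitor of metalloproteases, was among the abundant genes that fell, from 946, 993 and 976 CPM to 691, 693 and 690.1 CPM (log2 -0.49 ± 0.019).

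Secreted factors and their receptors held several of the best-supported rises. Il1rl1, the receptor of the alarmin IL-33, went from 86.5, 84.7 and 85.7 CPM to 183, 182 and 178 CPM (log2 1.08 ± 0.027, adjusted p = 6.45e-73). Spp1, osteopontin, went from 534, 541 and 552 CPM to 936, 915 and 918 CPM (log2 0.77, adjusted p = 6.45e-73). Ccl2, a chemokine that draws monocytes, went from 309, 309 and 296 CPM to 473, 476 and 471 CPM (log2 0.64 ± 0.021, adjusted p = 1.89e-59). None of these groups overlapped. Il33 itself stayed near the floor of detection, at 0.253, 0.417 and 0.608 CPM and then at 1.62, 1.15 and 0.996 CPM, with a log2 rise of 1.55 (adjusted p = 4.19e-06). Of 24 chemokines and cytokines, 8 rose, 7 fell and 9 did not pass, where 20.1% of all genes rose and 21.1% fell. Cxcl10, a T cell chemokine that interferon switches on, went from 371, 375 and 364 CPM to 327, 320.2 and 316 CPM (log2 -0.21, adjusted p = 1.64e-14), and Ccl5 did not pass (log2 0.04, adjusted p = 0.619). Grem1, an antagonist of bone morphogenetic proteins, rose by 0.57, and Tgfbi, a matrix protein that TGF-beta induces, by 0.92.

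Other genes named by size or by p belong to none of these groups. Selenoo, a mitochondrial selenoprotein, went from 18.2, 17.4 and 15.6 CPM to 46.7, 46.0 and 50.7 CPM (log2 1.48 ± 0.051, adjusted p = 1.57e-56). Angptl7, a secreted angiopoietin-like protein, went from 76.7, 73.6 and 73.6 CPM to 147, 144 and 142 CPM (log2 0.95); it lies within Mtor on the other strand. H2bc4, a histone H2B gene, went from 19.7, 20.3 and 18.99 CPM to 39.1, 39.9 and 40.5 CPM (log2 1.02, adjusted p = 5.93e-40). Each treated library was above all DMSO libraries in these genes. Acsbg1, a long-chain acyl-CoA synthetase, rose by 1.14, Ly6c1, a surface antigen, by 0.97, and the genes 2310039H08Rik and Gm13056 by 1.13 and 1.08. Cryab, a small heat shock protein, fell from 62.5, 63.5 and 57.8 CPM to 31.3, 31.4 and 34.3 CPM (log2 -0.92, adjusted p = 1.36e-42). Trim30d, of the TRIM family, fell by 0.91, and Gm7592 (ENSMUSG00000118607) by 1.22.

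At very low levels more genes rose than fell, although few passed the test. Among the 2868 tested genes with a mean under 1 CPM, 11.9% were called, where 41.1% of all genes were, and of these 252 rose and 89 fell. Some of these low genes may have entered the test only through the group where they are high. Their split therefore describes the genes kept by the filter and not all genes at that level. Among the 5367 genes between 20 and 100 CPM, 1252 rose and 1513 fell. Of the 41727 genes too low to be tested, 4972, 4953 and 4974 had at least 1 count in the DMSO libraries after each was thinned to 19302768 counts, and 5703, 5800 and 5827 had one with GSK3326595. The groups did not overlap, and the ratio of means was 1.16 (exact permutation test, two-sided, p = 0.1, the smallest p that 3 against 3 libraries can give). In the KO line the same count was lower with the inhibitor, 5028, 5141 and 5190 against 5549, 5602 and 5548 (ratio 0.92, exact permutation p = 0.1). Receptor genes of smell, pheromone sensing and taste, a set chosen after the values were seen, went from 122.3 ± 7.77 detected genes to 168.3 ± 7.51 in wild-type cells (SD, n = 3). In KO cells they went the other way, from 144.3 ± 6.81 to 113.0 ± 8.19 (SD, n = 3). Endothelial markers were also higher in wild-type cells, summing to between 3.6 and 4.47 CPM in DMSO and between 8.04 and 9.48 CPM with the inhibitor, while Kdr, Cldn5 and Erg stayed at 0 in all 6 libraries. Much of that sum is Eng, the co-receptor endoglin, at 2.83, 2.42 and 2.82 CPM and then at 5.31, 5.00 and 5.83 CPM, and the other 9 of the 10 markers averaged under 1 CPM. The part of endothelial-type RNA in this rise was not tested. In bulk RNA, more cells that express a gene and more RNA per cell cannot be told apart.

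**Figure D4:**
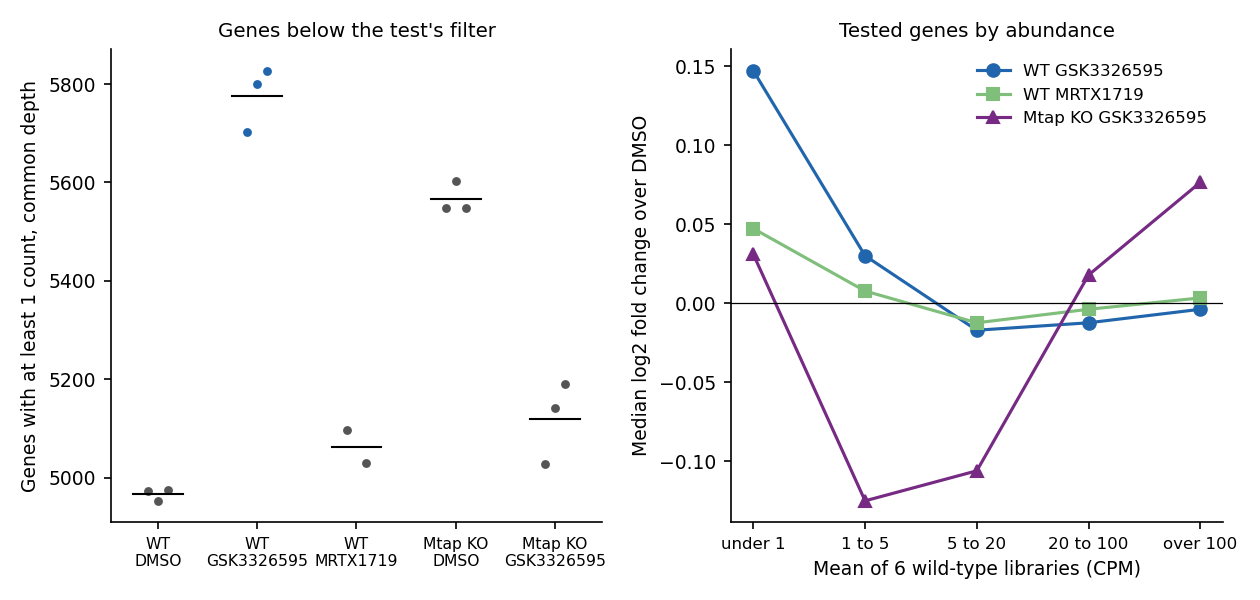
Left, the number of genes outside the tested set with at least 1 count in each library (points; lines are means) at the common depth of 19302768 counts; right, the median log2 fold change of tested genes by their mean level (CPM). The wild-type libraries with GSK3326595 lie between 5703 and 5827 and those in DMSO between 4953 and 4974, and in the KO line the order is turned round.

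The same inhibitor at the same dose was given to Mtap KO cells, which allows a test of whether the effect differs by line. The test is the interaction, the log2 change in wild-type cells minus that in KO cells, and 6264 genes passed it (42.2% of those tested), 3000 with the wild-type value higher and 3264 with it lower. Under upper-quartile scaling the split was 4060 and 2276. The lines differed before treatment as well, so genes start from unequal levels. The fall of class I was found in both lines, and for B2m the changes were -0.80 and -0.86 (interaction 0.06, adjusted p = 0.0919). For H2-K1 they were -0.88 and -0.89 (interaction 0.01, adjusted p = 0.935) and for Psmb9 -0.91 and -0.87. H2-D1 fell further in wild-type cells than in KO cells, -1.08 against -0.79 (interaction -0.28, adjusted p = 1.9e-16). Tapbp and Tap2 fell in wild-type cells by 0.43 and 0.35, with -0.04 for each in KO cells (interaction -0.38 and -0.31, adjusted p = 1.22e-21 and 2.98e-09). Of the 69 antiviral effectors, 30 differed between the lines, 13 with the wild-type value higher and 17 with it lower. That share is near the 42.2% of all genes tested.

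Replication genes went in opposite directions in these lines. Their list median was -0.12 in wild-type and 0.21 in KO cells, 43 of 55 passed the interaction, 42 of them with the wild-type value lower, and 24 fell in wild-type cells and rose in KO cells. E2f2 changed by -0.61 and 0.36 (interaction -0.97, adjusted p = 2.57e-16), Exo1 by -0.47 and 0.35 and Brca1 by -0.44 and 0.24. Mitotic genes had medians of 0.05 and 0.26, and 33 of 46 passed with the wild-type value lower. Cdkn1a fell by 0.36 in wild-type and rose by 0.81 in KO cells (interaction -1.17, adjusted p = 4.21e-27), and Mdm4 fell by 0.15 and 0.66 (interaction 0.51, adjusted p = 1.75e-19). Ccl2 rose by 0.64 in wild-type cells, with -0.16 in KO cells (interaction 0.80, adjusted p = 1.77e-54).

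The genes with the largest differences between the lines started from unequal levels. Fos, an AP-1 subunit, was at 119, 119 and 120.1 CPM in wild-type cells in DMSO and at 129, 127 and 125 CPM with the inhibitor, a log2 change of 0.09, against -1.64 in KO cells (interaction 1.73, adjusted p = 7.17e-47), where it started between 21.8 and 23.9 CPM. H2bc4 changed by 1.02 and -0.60 (interaction 1.62, adjusted p = 2.05e-49), from 65.5, 66.5 and 70.6 CPM in KO cells in DMSO. Islr, a secreted protein of stromal cells, fell by 0.36 and 1.82 (interaction 1.46), and Inmt, a methyltransferase of small amines, by 0.81 and 2.55 (interaction 1.74). P2ry14, a receptor for UDP-sugars, rose by 1.52 in wild-type cells, where it was under 1 CPM in DMSO (interaction 1.36), and 9630013A20Rik by 0.46 (interaction 1.64). In the other direction were Epb41l3, a protein that ties membrane to cytoskeleton (interaction -1.71), Prune2 (-1.39), Krt8, a keratin (-1.33), Inpp4b, a phosphoinositide phosphatase (-1.33), Lgr6, a receptor for R-spondins (-1.20), and Creb5, a transcription factor (-1.18). In KO cells in DMSO, Epb41l3 was at 0.667, 0.485 and 0.414 CPM and Inpp4b at 0.616, 0.566 and 1.04 CPM. Epb41l3, Prune2 and Creb5 did not pass in wild-type cells, with log2 differences of -0.01, 0.07 and 0.09.

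**Figure D5:**
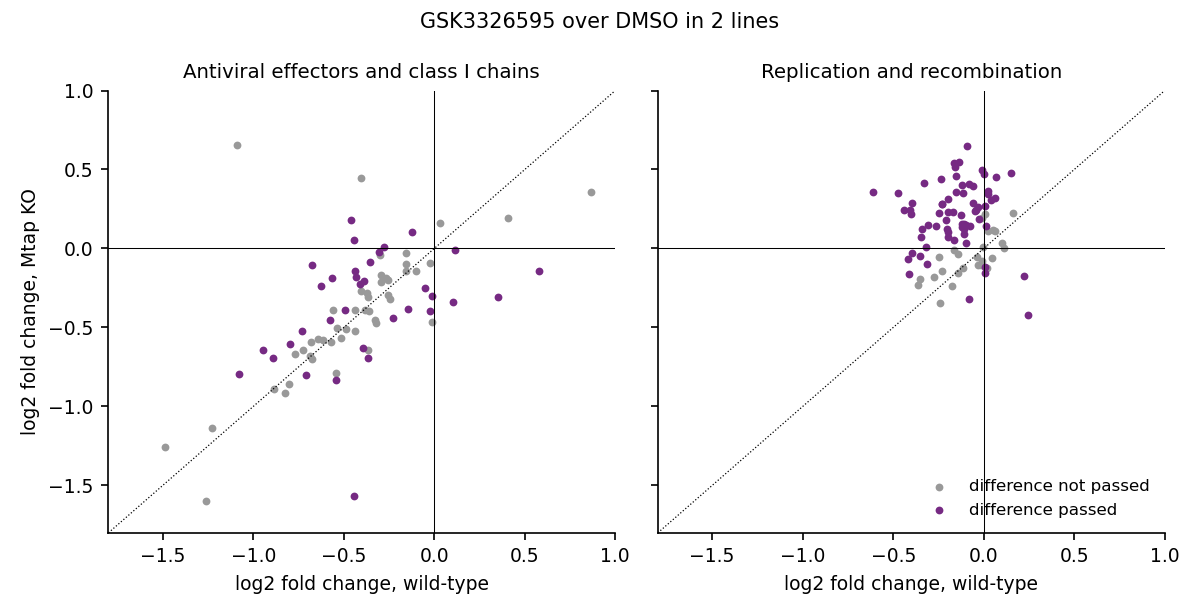
Log2 fold change with GSK3326595 over DMSO in wild-type MC38 cells (x axis) and in Mtap KO cells (y axis); each point is a gene, purple where the interaction passed, and the dotted line marks equal change. Effectors and class I chains (left panel) lie mostly in the lower left, and 24 replication genes (right panel, with recombination genes) passed as lower in wild-type and higher in KO cells.

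GSK3326595 and MRTX1719 were both given to wild-type cells at 0.5 µM for 5 days and share their DMSO libraries, so the direct difference between the compounds was tested. It passed for 4454 genes (30.0%), 2171 higher and 2283 lower with GSK3326595, or 2704 and 1780 under upper-quartile scaling. The MRTX1719 group has 2 libraries. Of the interferon genes, 59 of 69 effectors were lower with GSK3326595 than with MRTX1719, as were 15 of 16 GTPases and 8 of 12 class I chains, and 2 effectors, 1 GTPase and no class I chain were higher. Irf7 changed by -1.16 with GSK3326595 and by 0.03 with MRTX1719 (difference -1.19, adjusted p = 2.87e-63). H2-D1 changed by -1.08 and -0.29 (difference -0.79, adjusted p = 5.12e-64) and B2m by -0.80 and -0.25 (difference -0.55, adjusted p = 1.49e-52).

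Among genes with at least 10 CPM in the higher group, those furthest below MRTX1719 were Herc6 (difference -1.44), Gm7592 (-1.28), Irf7, Ifi44 (-0.999), Iigp1 (-0.95), a GTPase of the IRG family, and Trim30d (-0.92). Those furthest above it were Thbs2 (1.26), Lum (1.19), Acsbg1 (0.96), Dnm3os (0.96), a long non-coding RNA that is a host of microRNAs, Il1rl1 (0.94) and Selenoo (0.94). Replication genes had 23 of 55 lower and none higher with GSK3326595 than with MRTX1719, and mitotic genes 27 of 46 higher and none lower. Prmt5 rose by 0.10 with GSK3326595 and had a log2 value of 0.09 with MRTX1719, a difference of 0.01 ± 0.03 (adjusted p = 0.84), which this number of libraries does not separate from zero.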

How the data were processed

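RNA of MC38 cells was measured by directional poly(A) RNA-seq, and the 17 MC38 libraries of the deposited table of raw counts per gene were used; T cell tables were not used here. The tools named in the submitters' processing notes are DESeq 1.18.0, Bowtie2 2.1.0 and TopHat2 2.0.10, with the GRCm39 build; for the counting program, the annotation and the strand setting the sources used here state nothing. The deposited normalized values (a signal: counts divided by the authors' size factors) served only to name genes; all 15629 of its rows were tied to 1 identifier within 1e-06, other names came from the supplied tables, and 4144 of 56562 identifiers had no name.

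Counts were fitted with edgeR 4.0.16 in R 4.3.3 (TMM scaling, filterByExpr, robust quasi-likelihood F test, all 6 groups in 1 fit), with Benjamini-Hochberg adjustment over 14835 genes and a threshold of 0.05. Folds are wild-type GSK3326595 over DMSO. The groups held 3 libraries each, and 2 for MRTX1719 in wild-type cells, which limits the precision. The fit shares its estimate of the spread across genes and across all 6 groups. Very small adjusted p-values therefore draw on more than the libraries compared. The 17 libraries held 19302768 to 27786226 counts. DESeq2 1.42.0, other scalings and filters, a replicate block, the compared groups alone and leaving out each library were alternatives.

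The members and the 63 gene lists were chosen with earlier results of these data known; 8 list symbols were not matched. Named genes were the 10 largest rises and falls at 10 CPM or more without overlap between groups, the 5 with the smallest p in each direction, up to 6 called members of a list with the largest change, all of the PRMT5 complex, and the 6 largest differences in each direction between lines and between compounds. Cxcl10 and Ccl5, members of the chemokine list, Mtap and list members named as exceptions were added outside that rule. Promoters came from RefSeq (GRCm38.p6), a build other than that of the counts.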

Additional observations from a re-analysis of the deposited data

Results flagged for a closer look

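The effect of GSK3326595 differed between wild-type and Mtap KO cells, by the test of the interaction itself, for 6264 genes. The genes listed here were named by size, by p or by this difference itself. The 6 largest differences in each direction were named for that size, so their values follow from the choice. The difference of log2 fold change, wild-type minus KO, was positive for Inmt (1.74), Fos (1.73), 9630013A20Rik (1.64), H2bc4 (1.62), Islr (1.46), P2ry14 (1.36), Selenoo (1.17), 2310039H08Rik (1.08), Adamts10 (1.01), Lum (0.894), Gm13056 (0.885), Angptl7 (0.852), Ccl2 (0.801), Spp1 (0.312), Ly6c1 (0.256) and Gm7592 (0.236). It was negative for Epb41l3 (-1.71), Prune2 (-1.39), Krt8 (-1.33), Inpp4b (-1.33), Lgr6 (-1.2), Creb5 (-1.18), Cryab (-1.07), Trim30d (-0.598), Il1rl1 (-0.44), Irf7 (-0.333), H2-Q4 (-0.304), H2-D1 (-0.284), Acsbg1 (-0.273), H2-T22 (-0.199) and Bst2 (-0.192). Irf7, H2-Q4, H2-D1, H2-T22 and Bst2 fell in both lines, and further in wild-type cells.

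Genes outside the tested set gave a signal above the DMSO libraries. At the common depth, 5703, 5800 and 5827 of them had at least 1 count in the 3 wild-type libraries with GSK3326595, against 4972, 4953 and 4974 in DMSO and 5097 and 5029 with MRTX1719.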

How the results depend on the processing

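The number of genes changed with GSK3326595 (6102) ranged from 4581 with DESeq2 to 6224 with the compared groups alone. The count past 2-fold (344) moved to 180 with at least 1 CPM in 3 libraries and to 222 with DESeq2, and was 318 to 340 without single libraries. Leaving out 1 library gave 5404 to 5496 changed genes, 5795 to 6161 genes that differed between the lines (6264) and 3044 to 3957 that differed between the compounds (4454). The rise of Prmt5 lay between 0.08 and 0.13 in all alternatives. Of the 358 named genes, none reversed under any of 14 alternatives, and 53 lost the threshold in at least 1. Upper-quartile scaling shifted the median of all genes by 0.03 and the share of higher calls from 48.8% to 58.8% (47.9% to 64.1% between lines, 48.7% to 60.3% between compounds). Deviations of same-numbered replicates correlated at -0.03, -0.02 and -0.04, which gave no sign of pairing. Much of the deviation between replicates is counting noise, so this check cannot tell whether the numbers pair the libraries. With a replicate block, 6023 genes changed (2933 higher, 3090 lower), 341 past 2-fold, and Prmt5 rose by 0.10, while 6194 differed between lines and 4236 between compounds. Genes under 1 CPM rest on few counts, and the 2 MRTX1719 libraries limit the comparison of compounds.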

Other observations

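Several genes at low levels changed by more than 2-fold and belong to no comparison above. H19, an imprinted long non-coding RNA, went from 3.55, 3.33 and 2.78 CPM in DMSO to 0.847, 0.539 and 0.627 CPM with GSK3326595 in wild-type cells (log2 -2.26 ± 0.25, edgeR adjusted p = 6.44e-14), and it fell by 3.03 in KO cells (interaction 0.77, adjusted p = 0.278). Angpt2, a destabilising ligand of the endothelial receptor TIE2, went from 0.338, 0.341 and 0.13 CPM to 1.08, 1.35 and 1.11 CPM (log2 2.08 ± 0.32). Hgf, the ligand of MET, went from 1.06, 0.947 and 0.739 CPM to 3.46, 2.89 and 3.62 CPM (log2 1.85 ± 0.22). Neither pair of groups overlapped.

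Among proteases, Mmp10 went from 0.887, 0.606 and 0.999 CPM to 2.93, 2.5 and 2.66 CPM (log2 1.71 ± 0.22) and Mmp13 rose by 1.73, while their inhibitor Timp3 fell by 0.79. Krt19, a keratin of simple epithelia, rose by 2.20 from 0.0845, 0.152 and 0.174 CPM in DMSO, and Bmp6, a bone morphogenetic protein, by 1.91. Malat1, an abundant nuclear RNA, went from 709, 656 and 707 CPM to 504, 505 and 548 CPM (log2 -0.41 ± 0.046, adjusted p = 1.32e-05).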
